A study of Mus musculus with 12 samples.

Results

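Foxa2, Sox17, Gata4, Gata6 and Cxcr4 were chosen by name as endoderm transcription factors and the endoderm surface marker Cxcr4, and each of the 5 symbols matched 1 of the 19680 genes in the count table. All 12 libraries are total RNA of CJ9, a mouse embryonic stem cell line, after 5 days of culture towards endoderm or mesoderm. The 4 groups of 3 libraries were arid4b∆ endoderm, wild type endoderm, arid4b∆ mesoderm and wild type mesoderm. The labels give the cell line, the genotype and the lineage. Which part of Arid4b was removed, how many arid4b∆ clones were used, the agents that directed the cells and whether libraries came from separate cultures are not stated in the labels. Each p-value therefore rests on spread among libraries that could be technical replicates.

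Definitive endoderm forms at gastrulation, when cells of the anterior primitive streak that receive strong Nodal signalling switch on a set of transcription factors and move into the outer layer of the embryo. Foxa2 is a forkhead factor that opens closed chromatin and is needed for foregut and midline tissues. Sox17 is an HMG-box factor needed for the definitive gut endoderm, and Gata4 and Gata6 are related zinc finger factors that act in endoderm and also in heart mesoderm. Cxcr4 is the receptor of the chemokine Cxcl12, and its presence on the cell surface is widely used to sort definitive endoderm from stem cell cultures. Foxa2, Sox17, Gata4 and Gata6 are also active in the extraembryonic endoderm, so none of these genes marks 1 cell type alone.

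In the mouse build GRCm38, Foxa2 lies on chromosome 2 at 148042877 to 148046969 and Sox17 on chromosome 1 at 4490931 to 4497354, both on the minus strand. Gata4 lies on chromosome 14 at 63198922 to 63271692 (minus strand), Gata6 on chromosome 18 at 11052064 to 11085635 (plus strand) and Cxcr4 on chromosome 1 at 128588199 to 128592293 (minus strand). Sox17 shares 804 exonic bases with Gm37587 on the opposite strand, and Gata6 shares 93 with 1010001N08Rik, which held 4 counts over all 12 libraries. Whether strand was used in counting is not stated in the labels, so reads of these pairs cannot be told apart.

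Arid4b itself was counted at similar levels in libraries of both genotypes. It averaged 46.2 ± 4.27 CPM (counts scaled to a common library size) in arid4b∆ endoderm and 41.0 ± 3.97 in wild type endoderm, and 44.6 ± 2.96 in arid4b∆ mesoderm and 42.0 ± 4.77 in wild type mesoderm (SD, n = 3 each). Counts over a whole gene do not show a deletion of part of it, so "arid4b∆" stands throughout for libraries that carry this label, and each direction rests on it. Between 1949299 and 6678893 counts per library remained once the ribosomal RNA precursor was set aside, and 3 counts in a single library were worth 0.505 to 1.55 CPM.

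Foxa2 and Cxcr4 had promoter windows in the RefSeq table of GRCm38.p6, and both genes were among those that fell in arid4b∆ endoderm. The 250 bases before their outermost annotated starts are shown so that the letters before 2 genes that fell together can be read side by side. They run 5′ to 3′ on the gene's strand, chr1:128592300-128592549 for Cxcr4 and chr2:148046970-148047219 for Foxa2, with matches to the searched motifs in capitals.
Cxcr4: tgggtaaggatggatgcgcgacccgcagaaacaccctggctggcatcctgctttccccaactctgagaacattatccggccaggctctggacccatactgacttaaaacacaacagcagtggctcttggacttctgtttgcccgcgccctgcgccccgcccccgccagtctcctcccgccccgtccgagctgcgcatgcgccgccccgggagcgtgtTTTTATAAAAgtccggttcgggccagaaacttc
Foxa2: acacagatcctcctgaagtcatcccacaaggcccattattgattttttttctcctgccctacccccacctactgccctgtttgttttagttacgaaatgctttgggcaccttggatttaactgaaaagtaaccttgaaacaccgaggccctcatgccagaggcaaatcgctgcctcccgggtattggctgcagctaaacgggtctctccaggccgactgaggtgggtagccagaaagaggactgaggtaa
Searched on both strands were a GATA motif (AGATAA), a forkhead motif (TGTTTAC), a SOX motif (ACAATGG), a T-box motif (AGGTGTGA), a FOXH1 motif (TGTGGATT), a SMAD palindrome (GTCTAGAC), a TCF/LEF motif (CTTTGAT) and a TATA motif (TATAAAA). The Cxcr4 window held TATAAAA on both strands, overlapping, with the sense match beginning 30 bases before the start. Of 32851 promoter windows of this length, 4.98% held the TATA motif. The Foxa2 window shown held none of these motifs, while another of its annotated windows held AGATAA and TATAAAA. The shares of all windows were 9.99% for GATA, 3.17% for forkhead, 3.02% for SOX, 1.12% for T-box, 0.718% for FOXH1, 0.167% for SMAD and 3.21% for TCF/LEF. A match is a run of letters and not a shown binding site.

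In cells directed to endoderm, all 5 genes were lower in arid4b∆ than in wild type libraries, and 4 of them had almost no counts left. Foxa2 fell 41.8-fold, Sox17 24.1-fold, Gata6 22.3-fold and Cxcr4 14.3-fold, while Gata4 fell 2.53-fold. Of all 11635 genes tested, 12.7% were called in this comparison, 6.92% lower and 5.78% higher. Foxa2, Sox17, Gata6 and Cxcr4 passed the filter on low counts only through libraries of wild type cells, so for them a difference goes with having been tested, and Gata4 passed in every library.

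Foxa2 stood at 0.872, 0.169 and 0.809 CPM in arid4b∆ endoderm libraries 1 to 3, against 23.3, 30.2 and 19.8 CPM in wild type endoderm libraries 1 to 3. These arid4b∆ values are 8 counts over the group, against 326 in wild type endoderm, a ratio of 45.5 (exact 95% counting interval 22.8 to 106). The groups lay far apart, and the lowest wild type library was above every arid4b∆ library. The fitted log2 fold change was −5.38 ± 0.37 (SE, edgeR adjusted p = 1.46e-09), the 10th lowest of all genes tested.

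Sox17 stood at 1.45, 0.677 and 0.607 CPM in arid4b∆ endoderm, against 16.9, 28.5 and 16.4 CPM in wild type endoderm. The groups did not overlap, and 12 counts stood in arid4b∆ against 282 in wild type. Its log2 fold change was −4.59 ± 0.37 (edgeR adjusted p = 1.08e-08), the 21st lowest.

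Gata6 and Gata4, which bind the same DNA motif, differed in size of change. Gata6 stood at 2.03, 0.847 and 0.404 CPM in arid4b∆ endoderm, against 18.3, 26.9 and 21.8 CPM in wild type endoderm, a log2 fold change of −4.48 ± 0.31 (edgeR adjusted p = 1.46e-09). Gata4 stood at 7.26, 3.39 and 3.84 CPM in arid4b∆ endoderm, against 10.2, 11.8 and 12.7 CPM in wild type endoderm, a log2 fold change of −1.34 ± 0.24 (edgeR adjusted p = 0.000597). For each gene the 3 arid4b∆ libraries lay below the 3 wild type libraries, but for Gata4 the gap between the highest arid4b∆ and the lowest wild type library was narrow, with arid4b∆ library 1 closest to wild type.

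Cxcr4 stood at 2.03, 1.19 and 1.21 CPM in arid4b∆ endoderm, against 19.2, 25.0 and 16.7 CPM in wild type endoderm. Its 20 counts in arid4b∆ and 271 in wild type gave a ratio of 15.1 (exact 95% counting interval 9.60 to 25.2), and the groups did not overlap. The log2 fold change was −3.84 ± 0.38 (edgeR adjusted p = 2.06e-07). Groups ordered in this way, with the 3 arid4b∆ libraries below the 3 wild type libraries, occurred for 15.5% of all genes tested.

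Within groups, several of the genes were highest in the same library. In wild type endoderm, library 2 held the highest CPM of Foxa2, Sox17, Gata6 and Cxcr4, while the streak gene T was lowest there, at 36.9 CPM against 44.8 in library 1 and 57.3 in library 3. In arid4b∆ endoderm, library 1 held the highest value of all 5 genes. All 5 falls were called without any 1 of the 6 endoderm libraries, with log2 fold changes between −5.74 and −4.82 for Foxa2, −4.96 and −4.24 for Sox17, −5.07 and −4.09 for Gata6, −4.07 and −3.64 for Cxcr4, and −1.68 and −1.11 for Gata4. The lowest Gata6 value, a fall over 1.5 times as large as with all libraries, was that without arid4b∆ endoderm library 1.

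**Figure D1:**
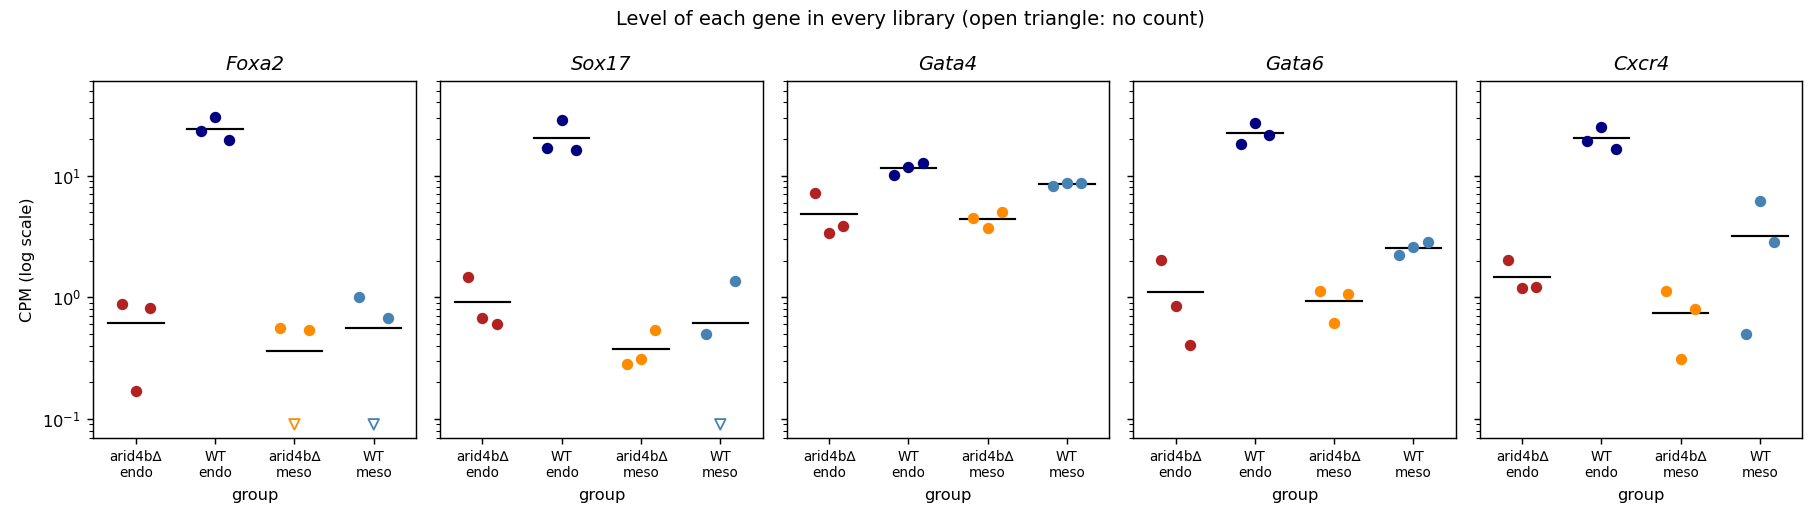
CPM of each gene in every library, on a log scale, by group (arid4b∆ and wild type, endoderm and mesoderm); points are libraries, lines are group means, n = 3, and open triangles at the foot mark libraries without a count. Wild type endoderm stands above arid4b∆ endoderm for every gene, and only Gata4 stays above 3 CPM in all 12 libraries.

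Per kilobase of exon, which allows genes to be set side by side, the order of levels differed between the genotypes. In arid4b∆ endoderm, Gata4 had the highest level at 1.24 ± 0.543 RPKM (CPM per kilobase of exon; SD, n = 3), followed by Cxcr4 at 0.817 ± 0.267, Foxa2 at 0.260 ± 0.164, Sox17 at 0.191 ± 0.0984 and Gata6 at 0.168 ± 0.129. In wild type endoderm, Cxcr4 led at 11.2 ± 2.37 RPKM, followed by Foxa2 at 10.3 ± 2.23, Sox17 at 4.31 ± 1.43, Gata6 at 3.43 ± 0.665 and Gata4 at 2.97 ± 0.329. Gata4 was thus the highest of the 5 in arid4b∆ endoderm and the lowest in wild type endoderm. Neighbours in this order differed by less than the larger of their SDs, except Cxcr4 and Foxa2 in arid4b∆ endoderm, and Foxa2 and Sox17 in wild type endoderm.

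The unequal falls were also compared within libraries, where library size cancels. Gata4 held 3.40, 3.73 and 7.80 counts for each count of Gata6 in arid4b∆ endoderm (0.5 added to each count), against 0.559, 0.441 and 0.587 in wild type endoderm. The arid4b∆ ratios rest on 7, 5 and 2 counts of Gata6, and those with Foxa2 on 3, 1 and 4 counts of Foxa2. The mean log2 ratio of Gata4 over Gata6 was 3.14 ± 0.40 (SE) higher in arid4b∆ than in wild type, with no overlap between the groups. Gata4 over Cxcr4 was higher by 2.39 ± 0.23, Foxa2 over Gata4 lower by 3.97 ± 0.53 and Sox17 over Gata4 lower by 3.07 ± 0.28, each without overlap. Foxa2 over Cxcr4 was lower by 1.58 ± 0.53 and Sox17 over Cxcr4 by 0.68 ± 0.17, also without overlap. An exact two-sided permutation test gave p = 0.1 for these 6 pairs (adjusted p = 0.167 over the 10 pairs of genes), which is the smallest p that 3 against 3 libraries allow. Sox17 over Gata6 differed by 0.06 ± 0.32 between genotypes (exact permutation p = 0.9), and in the other 3 pairs the groups overlapped too.

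**Figure D2:**
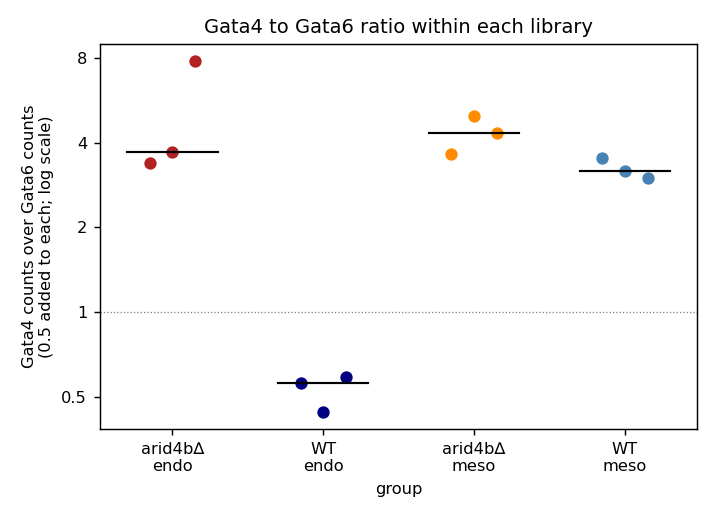
Counts of Gata4 for each count of Gata6 within every library (0.5 added to both, log scale), by group; points are libraries and lines are medians of 3. The 3 wild type endoderm libraries lie between 0.441 and 0.587, and the other 9 libraries between 3.00 and 7.80.

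In cells directed to mesoderm, Foxa2 and Sox17 were at or near the limit of counting in both genotypes, and the remaining genes were low. Gata4 and Gata6 fell in arid4b∆ mesoderm, by 1.93-fold and 2.69-fold, where 19.1% of all genes tested were called, 10.2% lower and 8.93% higher. The differences of Foxa2, Sox17 and Cxcr4 were not called.

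Foxa2 held 2, 0 and 2 counts in arid4b∆ mesoderm libraries 1 to 3, against 4, 0 and 4 counts in wild type mesoderm libraries 1 to 3. Sox17 held 1, 1 and 2 counts in arid4b∆ mesoderm, against 2, 0 and 8 in wild type mesoderm. A floor of 3 counts over a group corresponded to 0.284 CPM in arid4b∆ mesoderm and 0.252 CPM in wild type mesoderm. Foxa2 averaged 0.364 CPM in arid4b∆ mesoderm and 0.557 CPM in wild type mesoderm, and Sox17 0.373 and 0.615 CPM in the same groups. The ratio of wild type to arid4b∆ was 1.78 for Foxa2 (exact 95% counting interval 0.477 to 8.07) and 2.22 for Sox17 (0.641 to 9.71), and a difference of several-fold was not detectable at this depth (edgeR adjusted p = 0.599 and 0.439).

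Gata4 stood at 4.47, 3.69 and 5.07 CPM in arid4b∆ mesoderm, against 8.23, 8.76 and 8.75 CPM in wild type mesoderm, without overlap (log2 fold change −0.95 ± 0.27, edgeR adjusted p = 0.0171). Gata6 stood at 1.12, 0.615 and 1.07 CPM in arid4b∆ mesoderm, against 2.24, 2.58 and 2.86 CPM in wild type mesoderm, also without overlap (−1.43 ± 0.49, edgeR adjusted p = 0.0456). Groups with all arid4b∆ libraries below all wild type libraries made up 17.1% of genes tested in mesoderm. The Gata4 call ended without arid4b∆ mesoderm library 2 (adjusted p = 0.0711) or wild type mesoderm library 3 (0.0654). The Gata6 call, which rests on 10 and 31 counts, ended without any of arid4b∆ libraries 1 (0.0775), 2 (0.142) and 3 (0.0866) or of wild type libraries 2 (0.0668) and 3 (0.173). In DESeq2 neither was called (adjusted p = 0.0777 for Gata4 and 0.115 for Gata6), nor was either against a 1.5-fold threshold, and Gata6 was not called in limma-voom (0.104).

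Among the 5 genes, Cxcr4 had the largest SD in wild type mesoderm, at 2.86 CPM. It stood at 1.12, 0.308 and 0.800 CPM in arid4b∆ mesoderm, against 0.499, 6.18 and 2.86 CPM in wild type mesoderm, so that wild type library 1 lay inside the arid4b∆ range and the other 2 above it. Mesp1, a factor of nascent mesoderm, had no count in arid4b∆ mesoderm. In wild type mesoderm libraries 1 to 3 it followed the same order as Cxcr4, with 3.99, 15.5 and 8.75 CPM. Of the other mesoderm markers, Hand1 also followed this order (0.998, 10.3 and 3.87 CPM). T (130, 212 and 315 CPM), Kdr (3.49, 8.76 and 11.4 CPM) and Pdgfra (22.7, 34.5 and 37.0 CPM) were instead highest in library 3. The log2 fold change of Cxcr4 was −1.77 ± 0.66 (edgeR adjusted p = 0.0655), and without wild type mesoderm library 1 it was −2.29 and called (adjusted p = 0.00379). It ranged from −2.29 to −1.28 as single libraries were left out.

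The effect of genotype was then compared between the lineages, the question being whether a gene fell further in endoderm than in mesoderm. Foxa2, Sox17, Gata6 and Cxcr4 passed the filter only with wild type endoderm libraries, so for them such a difference goes with having been tested. Of the 5 genes, only Gata6 was called. Its log2 change was −4.48 in endoderm and −1.43 in mesoderm, a difference of −3.05 ± 0.71 (edgeR adjusted p = 0.0312). Of all genes 1.4% were called, 0.774% with a lower and 0.627% with a higher value in endoderm. That call ended without any of arid4b∆ mesoderm libraries 1, 2 and 3, arid4b∆ endoderm libraries 2 and 3 or wild type endoderm library 2 (adjusted p between 0.0549 and 0.157). For Foxa2 the difference was −4.61 ± 1.28 (adjusted p = 0.0883), for Sox17 −3.52 ± 1.24 (adjusted p = 0.222) and for Cxcr4 −2.07 ± 0.93 (adjusted p = 0.432), none of them called; without wild type mesoderm library 1 that of Foxa2 was called (adjusted p = 0.0443). Without wild type mesoderm library 3 that of Sox17 was −4.75 and not called (adjusted p = 0.136). Gata4 changed by −1.34 in endoderm and −0.95 in mesoderm, with a difference of −0.39 ± 0.37 (adjusted p = 0.805). The few counts of Foxa2 and Sox17 in both mesoderm groups limit their tests.

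**Figure D3:**
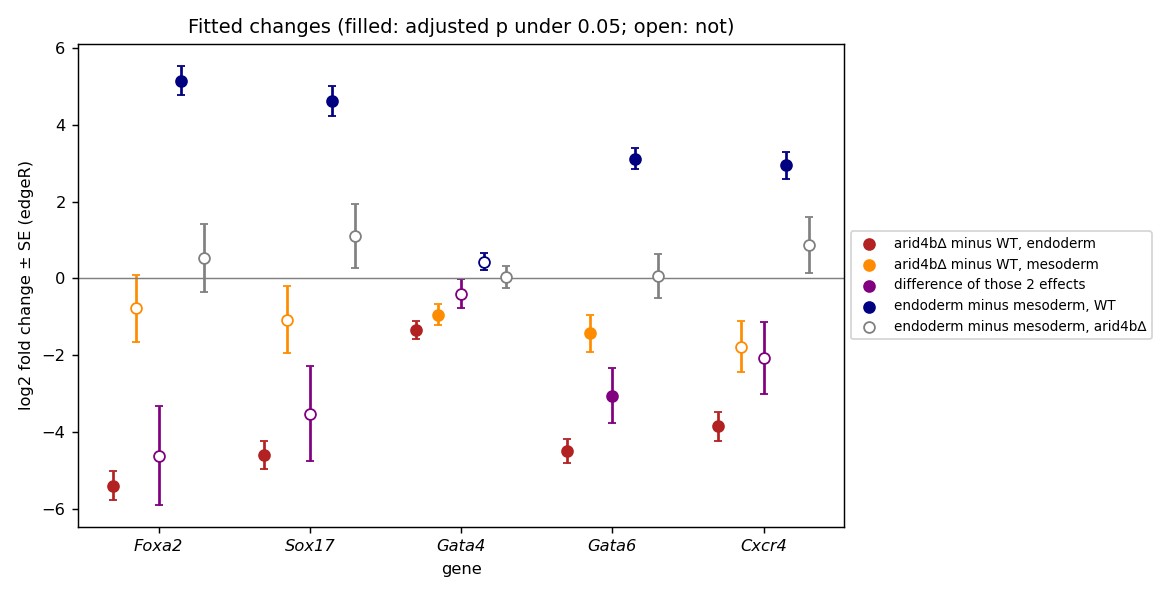
Fitted log2 fold changes with standard errors for each gene, with n = 3 libraries per group; red, arid4b∆ minus wild type in endoderm; orange, the same in mesoderm; purple, the difference of these 2 effects; dark blue, endoderm minus mesoderm in wild type; grey, the same in arid4b∆. Filled points have an adjusted p under 0.05. All 5 red points are filled, and no grey point is.

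The lineages were compared within each genotype to see whether the genes told endoderm from mesoderm. In arid4b∆ cells edgeR called none of the 5, where 1.86% of all genes were called, 0.954% higher and 0.902% lower in endoderm. No call among 5 genes is near that share and does not tell whether the genes separated the lineages. In wild type cells 4 of the 5 were called higher in endoderm and Gata4 was not, where 9.84% of all genes were called, 4.41% higher and 5.43% lower. Foxa2 and Sox17 reached the filter's level only in wild type endoderm, and Gata6 and Cxcr4 passed only with those libraries, so their count is a description of genes that had to be high there. The genotype and lineage comparisons share libraries, so these are not separate findings.

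In arid4b∆ cells, the ratio of endoderm to mesoderm counts was 1.48 for Foxa2 (exact 95% counting interval 0.397 to 6.72), 2.22 for Sox17 (0.673 to 9.45), 1.01 for Gata4 (0.681 to 1.501), 1.04 for Gata6 (0.428 to 2.61) and 1.85 for Cxcr4 (0.781 to 4.86). Adjusted p in edgeR lay between 0.669 for Sox17 and 0.993 for Gata6. All 3 endoderm libraries lay above all 3 mesoderm libraries for Sox17 and Cxcr4, an ordering seen for 9.59% of genes tested.

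In wild type cells, Foxa2 was 35.4-fold higher in endoderm than in mesoderm (log2 fold change 5.14 ± 0.38, edgeR adjusted p = 6.02e-09), the 8th highest of all genes tested, and Sox17 24.6-fold higher (4.62 ± 0.39, adjusted p = 4.02e-08), the 11th highest. Gata6 was 8.62-fold higher (3.11 ± 0.27, adjusted p = 6.64e-08) and Cxcr4 7.68-fold higher (2.94 ± 0.36, adjusted p = 5.23e-06). Without wild type mesoderm library 3, which held 8 of the 10 mesoderm counts of Sox17, the log2 fold change of Sox17 was 5.85. The fold change of Gata4 was 1.35 and not called (0.44 ± 0.23, adjusted p = 0.282), although its 3 endoderm libraries lay above its 3 mesoderm libraries, as for 12.2% of genes tested.

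The order of the 4 groups differed between the genes, and how many of all genes share each order was not counted. For Foxa2 and Sox17, wild type endoderm stood alone at the top, followed by arid4b∆ endoderm, wild type mesoderm and arid4b∆ mesoderm, and each of these 3 overlapped with its neighbour in that order. For Sox17, arid4b∆ endoderm and arid4b∆ mesoderm did not overlap. For Gata4 and Gata6, wild type endoderm was followed by wild type mesoderm and then by arid4b∆ endoderm, each without overlap, and the arid4b∆ groups overlapped with each other. Gata6 in arid4b∆ endoderm averaged 1.09 ± 0.843 CPM, and in wild type mesoderm 2.56 ± 0.309 CPM. For Cxcr4, wild type endoderm led, wild type mesoderm overlapped with arid4b∆ endoderm, and arid4b∆ mesoderm was lowest.

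Close relatives of these factors were mostly rare. Of 8 relatives listed, 2 had enough counts to be tested. Foxa1 passed the filter only through wild type endoderm, with averages of at most 0.378 CPM in the other groups. Gata3 passed only through wild type mesoderm, with at most 0.850 CPM elsewhere. For both a difference goes with having been tested. Foxa1, which shares the forkhead domain of Foxa2, held 2 counts in arid4b∆ endoderm and 95 in wild type endoderm, a ratio of 53.0 (exact 95% counting interval 14.3 to 444; edgeR adjusted p = 1.35e-06), and 4 counts in arid4b∆ mesoderm and 1 in wild type mesoderm. Gata3, a zinc finger factor of trophoblast and other lineages, averaged 0.850 CPM in arid4b∆ mesoderm and 6.24 CPM in wild type mesoderm (log2 fold change −2.71 ± 0.55, edgeR adjusted p = 0.00127), and was not called in endoderm. Foxa3 had 8 and 14 counts in arid4b∆ and wild type endoderm and 28 and 23 in arid4b∆ and wild type mesoderm, and Gata2 had 6 and 28 in arid4b∆ and wild type mesoderm. Sox7, Sox18, Gata1 and Gata5 had at most 13 counts each over all 12 libraries.

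Of 5 tested genes for the ligand and signalling partners of Cxcr4, none fell and 1 rose in arid4b∆ endoderm, beside 6.92% lower and 5.78% higher among all genes. Counts among 5 genes are too small to be told from these shares. Cxcl12, its ligand, averaged 13.0 CPM in arid4b∆ endoderm and 15.3 CPM in wild type endoderm (log2 fold change −0.23 ± 0.21, edgeR adjusted p = 0.561). Gnai2 and Gnai3, which encode inhibitory G protein subunits, and the arrestin gene Arrb1 were not called in endoderm, and Arrb2, the other ubiquitous arrestin, rose by 0.66 ± 0.18 (adjusted p = 0.0175). Ackr3, the scavenging receptor for Cxcl12, held 2 counts in arid4b∆ endoderm and 45 in wild type endoderm, a ratio of 25.1 (exact 95% counting interval 6.56 to 214), and was too rare to be tested. In mesoderm none of the 5 tested genes of this list was called (edgeR), beside 10.2% lower and 8.93% higher among all genes. With 5 genes this count is too small to set against those shares.

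Genes that act before or beside the 5 in endoderm formation were counted next. Of 14 streak and endoderm regulators tested, 9 fell and none rose in arid4b∆ endoderm, beside 6.92% lower and 5.78% higher among all genes. The median log2 fold change was −2.63, against −0.0037 over all genes. Of the 9, Cer1, Lhx1 and Gsc averaged at most 0.557 CPM in the arid4b∆ groups and passed the filter only through wild type libraries. T averaged 1.11 CPM in arid4b∆ endoderm and 4.71 CPM in arid4b∆ mesoderm, and it too passed only with wild type libraries. For these a difference goes with having been tested. Mixl1, also among the 9, averaged 2.13 CPM in arid4b∆ endoderm and 2.05 CPM in arid4b∆ mesoderm, below the filter's level of 2.38 CPM. Lhx1, a LIM homeobox factor, averaged 0.514 CPM in arid4b∆ endoderm and 58.9 CPM in wild type endoderm (−6.66 ± 0.31, adjusted p = 3.54e-12). Eomes, the T-box factor that acts upstream of Foxa2 and Sox17 in mouse, changed by −2.93 ± 0.14, and Tdgf1, the Nodal co-receptor Cripto, by −2.32 ± 0.18 (adjusted p at most 5.68e-09). Cer1, a secreted Nodal inhibitor, held 3 counts in arid4b∆ endoderm and 971 in wild type endoderm. The 5 genes of this list that were not called in endoderm were Foxh1, Smad2, Smad3 and Smad4, which carry the Nodal signal to the genome, and Otx2, a head homeobox factor.

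Later endoderm and gut genes were measured less fully. Of 16 listed, 15 were matched by symbol and 9 could be tested. Of the 9, 7 fell and none rose in arid4b∆ endoderm, beside 6.92% lower and 5.78% higher among all genes. The median log2 fold change of the 9 was −2.70, against −0.0037 over all genes. Kit, a receptor tyrosine kinase used with Cxcr4 to sort endoderm, averaged 6.83 CPM in arid4b∆ endoderm and 49.8 CPM in wild type endoderm (−2.97 ± 0.21, edgeR adjusted p = 2.44e-09). Trh, which encodes thyrotropin-releasing hormone, changed by −2.79 ± 0.25, and Prdm1, a zinc finger repressor, by −2.70 ± 0.38 (adjusted p at most 3.07e-05). Foxa1, which passed the filter only through wild type endoderm, is also in this list. The 2 genes not called were Epcam and Cldn6, which encode epithelial adhesion and junction proteins.

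In mesoderm the streak and endoderm list held 4 genes that fell, 1 that rose and 9 not called, beside 10.2% lower and 8.93% higher among all genes, so that the 1 rise is near the share over all genes. The median was −0.24, against 0.0071 over all genes. T fell to 4.71 ± 2.65 CPM in arid4b∆ mesoderm, against 219 ± 92.8 CPM in wild type mesoderm. It passed the filter only with wild type libraries, so this difference goes with having been tested. Otx2 rose by 1.94 ± 0.18 (edgeR adjusted p = 2.03e-07). Of the 9 tested gut genes, 4 fell and none rose in arid4b∆ mesoderm, beside 10.2% lower among all genes (median log2 fold change −0.82), with Krt8 and Krt18, which encode simple epithelial keratins, first. The effects of genotype on Cer1 cannot be set against each other, since Cer1 had no count in either mesoderm group.

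**Figure D4:**
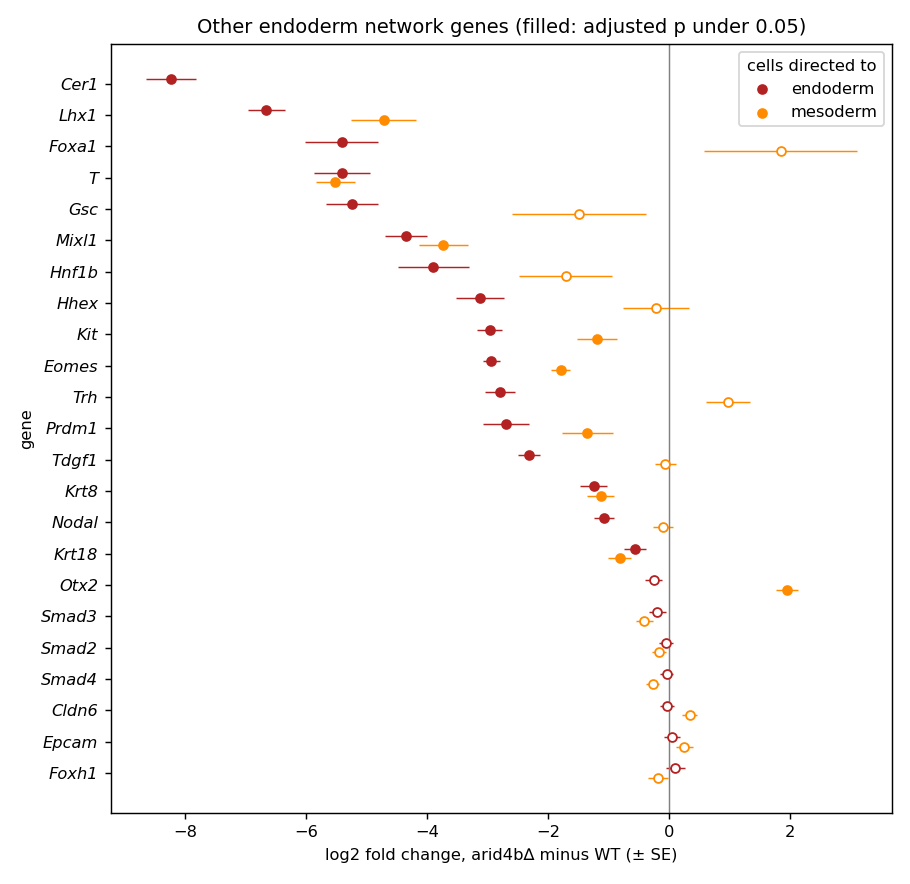
Fitted log2 fold change of arid4b∆ minus wild type, with standard errors, for the tested streak, endoderm and gut genes other than the 5, in endoderm (red) and mesoderm (orange), n = 3 libraries per group; filled points have an adjusted p under 0.05. The 16 genes that fell in endoderm run from Cer1 at the top to Krt18, and Cer1 has no mesoderm point because it had no count there.

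Genes were also ranked by how alike their profiles over the 12 libraries were, as the root mean square difference of log2 CPM after each gene's own mean was subtracted, among 11019 genes. All of these profiles share the same libraries, and the measure is a description. Sox17 was the closest gene to Foxa2 (0.479 log2 units), followed by the forkhead gene Foxq1 (0.618) and Rgs8, a regulator of G protein signalling (0.620). Closest to Sox17 were Foxa2, the streak homeobox gene Gsc (0.499) and Foxq1 (0.513). Gata6 was nearest to Sema6d, a transmembrane semaphorin (0.394), the uridine phosphorylase gene Upp1 (0.476) and Kit (0.497). Cxcr4 was nearest to Cfc1, a Nodal co-receptor (0.484), Upp1 (0.578) and Gata6 (0.636).

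None of the other 4 genes was among the nearest to Gata4, which were Afap1, an actin filament adaptor (0.193), Rreb1, a zinc finger factor (0.228), and Slit2, a secreted guidance protein (0.233), whose log2 changes in arid4b∆ endoderm were −1.23, −1.33 and −1.60. Afap1 averaged 9.01 CPM in arid4b∆ endoderm and 20.1 CPM in wild type endoderm, and 7.12 CPM in arid4b∆ mesoderm and 15.1 CPM in wild type mesoderm, the same order of groups as Gata4. From Gata6, Gata4 lay at 1.16 log2 units (112th closest) and Foxa2 at 0.848 (28th closest). The measure is not scaled to the size of change, so genes that fell by unlike amounts lie apart even where they fell together.

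Marker genes of other cells moved with some of these results, and their part in them was not tested. In bulk RNA, fewer cells of a type and less RNA per cell cannot be told apart. The 10 fibroblast and feeder genes summed to 79.7 to 270.2 CPM in arid4b∆ endoderm (10 of 10 counted) and to 23.1 to 76.5 CPM in wild type endoderm (8 of 10, Lum and Fap at 0), and 4 of 7 tested rose, with a median log2 fold change of 1.99. In mesoderm they summed to 91.7 to 219 CPM in arid4b∆ (10 of 10) and 27.8 to 104 CPM in wild type (9 of 10, Fap at 0), and 1 of 7 tested rose. Among all genes, 5.78% were higher in arid4b∆ endoderm and 8.93% in arid4b∆ mesoderm, so that the 1 rise in mesoderm is near that share. The 8 endothelium and blood genes, a setting in which Cxcr4 is also expressed, summed to 9.71 to 16.3 CPM in arid4b∆ endoderm (7 of 8, Tal1 at 0) and 65.3 to 86.9 CPM in wild type endoderm (8 of 8). Most of the wild type sum was Flt1, a receptor for vascular growth factors, which averaged 4.71 CPM in arid4b∆ endoderm and 61.1 CPM in wild type endoderm. Of 3 tested, 2 fell, beside 6.92% lower among all genes. These were Flt1 and Runx1 (3.42 and 11.1 CPM in the same groups, log2 fold change −1.80 ± 0.32, edgeR adjusted p = 0.000451). Pecam1 averaged 0.315 and 0.497 CPM in these groups and was not called. In mesoderm this list summed to 14.4 to 19.3 CPM in arid4b∆ and 9.79 to 13.97 CPM in wild type. The 12 cardiac and lateral mesoderm genes, where Gata4 and Gata6 also act, summed to 1.86 to 4.36 CPM in arid4b∆ endoderm (10 of 12, Hand2 and Nkx2-5 at 0) and 14.8 to 16.7 CPM in wild type endoderm (10 of 12, Tbx5 and Nkx2-5 at 0), and all 4 tested fell. In mesoderm, where Gata4 and Gata6 fell too, they summed to 4.92 to 7.46 CPM in arid4b∆ (10 of 12, Hand2 and Mesp1 at 0) and 18.2 to 53.1 CPM in wild type (12 of 12), and 3 of 4 tested fell. Among all genes, 6.92% were lower in arid4b∆ endoderm and 10.2% in arid4b∆ mesoderm. The 4 tested averaged at most 1.56 CPM in the arid4b∆ groups, and none passed the filter without wild type libraries. For them a difference goes with having been tested.

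The summed level of extraembryonic endoderm genes overlapped between the genotypes. The 18 listed summed to 340 to 508 CPM in arid4b∆ endoderm (18 of 18 counted) and 355 to 497 CPM in wild type endoderm (16 of 18, Afp and Thbd at 0). Over all 12 libraries there were 3 counts of Afp, which encodes alpha-fetoprotein, 9 of Apoa1, 32 of Ttr and 13 of Sox7, while other genes of the list were plainly counted. Cubn, an endocytic receptor, averaged 5.09 CPM in arid4b∆ endoderm and 5.28 CPM in wild type endoderm, and 23.8 CPM in arid4b∆ mesoderm and 27.3 CPM in wild type mesoderm. Dab2, its adaptor, averaged 6.95 CPM in arid4b∆ endoderm and 3.34 CPM in wild type endoderm, and Lrp2, its partner receptor, 107 CPM in arid4b∆ endoderm and 58.5 CPM in wild type endoderm. Of the 11 tested, Lamb1 and Pdgfra fell in arid4b∆ endoderm and Lrp2 rose, with a median log2 fold change of −0.032. Pdgfra passed the filter only with wild type libraries. The 8 neural genes summed to 117 to 131 CPM in arid4b∆ endoderm and 130 to 138 CPM in wild type endoderm, and none of the 3 tested was called (edgeR). The 8 pluripotency genes summed to 357 to 404 CPM in arid4b∆ endoderm and 335 to 392 CPM in wild type endoderm, with single genes moving in both directions. Of 7 tested, Fgf4 (log2 fold change 2.34), Zfp42 (1.96) and Sox2 (0.92) rose and Nanog (−1.19) fell in arid4b∆ endoderm, with a median of 0.92. Beside the calls in these lists, 6.92% of all genes were lower and 5.78% higher in arid4b∆ endoderm.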

How the data were processed

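The deposited table holds raw read counts per gene, 1 column per library, per the file headers; STAR, DESeq2 and the build mm10 are named in the submitters' processing notes, without versions or roles. The counting program, its strand setting and its annotation are not stated there. Ribosomal RNA was depleted and libraries were directional, per the labels' protocols, yet the precursor Rn45s took 79.6% to 82.4% of total counts (10352411 to 35664057) and entered neither library sizes nor tests. Mir6236 and Lars2 took 49.7% to 69.5% of the remaining counts and were kept. For 26 genes, none of them described here, 1 column held a date in place of a count, and these genes were left out. The fit used edgeR 4.0.16 (R 4.3.3): scaling by trimmed mean of M values, filterByExpr with a minimum count of 10 (2.38 CPM in at least 3 libraries), 11635 genes tested, all 12 libraries in 1 fit of 4 group means, quasi-likelihood F tests, Benjamini-Hochberg adjustment over all genes, threshold 0.05. Standard errors are the log2 fold change over the root of F. RPKM used exon unions of GENCODE M21. Counting intervals and floors cover counting error only, since reads carried no molecular identifiers. No replicate pair agreed within sampling noise (chi-square per degree of freedom 1.76 to 5.38). The test was checked on simulated counts. Alternatives were DESeq2 1.42.0, limma-voom 3.58.1, other scaling and filters, a replicate block, fits of 6 libraries, a 1.5-fold threshold and leaving out each library. Genes named are the 5 members, Arid4b and the 3 most alike profiles of each member (predicted gene models left out). Every gene of the family and Cxcr4 lists is named. In other lists up to 4 genes of smallest adjusted p are named, beside genes listed at 0. Genes not called are named where their number is small. T, Mesp1, Kdr, Pdgfra and Hand1 check the mesoderm. In wild type, T, Mesp1 and Hand1 were higher in mesoderm than in endoderm without overlap. Kdr (7.90 CPM in mesoderm, 3.72 in endoderm) and Pdgfra (31.4 and 34.4 CPM) overlapped between the lineages. Afp, Apoa1, Ttr, Cubn, Dab2 and Pecam1 were named after their values were seen. Genes and lists were chosen with earlier results of these data known.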

Additional observations from a re-analysis of the deposited data

Results flagged for a closer look

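The effect of genotype on Gata6 differed between the lineages by the interaction test, with a log2 difference of −3.05 ± 0.71 (SE, endoderm minus mesoderm; edgeR adjusted p = 0.0312). Gata6 passed the filter on low counts only with wild type endoderm libraries, so this difference goes with having been tested. The call ended on leaving out any 1 of 6 single libraries (adjusted p between 0.0549 and 0.157) and against a 1.5-fold threshold (adjusted p = 0.0911).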

How the results depend on the processing

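Of 25 gene results (5 genes in 5 comparisons), 17 kept direction and side of the threshold under every alternative run, among them all 5 falls in arid4b∆ endoderm and the 5 lineage results in wild type. In mesoderm, the log2 fold change of Gata4 was −0.95 and not called against a 1.5-fold threshold (adjusted p = 0.376) and in DESeq2 (−0.95, 0.0777). That of Gata6 was −1.43 against 1.5-fold (0.270), −1.36 in limma-voom (0.104) and −1.46 in DESeq2 (0.115), none called. Cxcr4 in mesoderm was called without a filter on low counts (−1.77, 0.00745) and with the replicate block (−1.82, 0.0327). The lineage difference of Foxa2 was called without the filter (−4.61, 0.00843), in limma-voom (−4.77, 0.0458) and in DESeq2 (−4.62, 0.00562), and that of Gata6 was not called against 1.5-fold (−3.05, 0.0911). Between lineages in arid4b∆ cells, limma-voom gave −0.065 for Gata4 and −0.18 for Gata6, opposite in sign and not called. The cause of these changes was not tested.

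As single libraries were left out, values ran in mesoderm from −1.41 to 0.16 for Sox17, −1.06 to −0.84 for Gata4, −1.57 to −1.23 for Gata6 and −2.29 to −1.28 for Cxcr4. The lineage difference ran from −5.10 to −4.05 for Foxa2, −4.75 to −3.18 for Sox17 and −3.64 to −2.65 for Gata6. Between lineages in arid4b∆ cells the range was −0.30 to 0.27 for Gata4 and −0.53 to 0.44 for Gata6, and the Sox17 to Gata6 ratio moved between −0.22 and 0.25.

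Counts of all genes called moved as well. In endoderm 1478 became 372 against 1.5-fold, 914 in DESeq2 and 836 to 1321 with a library left out. In mesoderm 2222 became 504, 1448 and 1472 to 2467 in the same order. For the lineage difference 163 became 377 without the filter, 255 with the replicate block, 55 against 1.5-fold and 104 to 354 with a library left out. Between lineages in wild type 1145 became 404 against 1.5-fold and 741 to 1391 with a library left out. Between lineages in arid4b∆ cells 216 became 483 without the filter, 377 with the replicate block, 26 against 1.5-fold, 127 in DESeq2 and 59 to 237 with a library left out.

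Replicate numbers were not taken to pair libraries. Deviations of same-numbered libraries correlated weakly, at −0.056 to 0.193 and mostly above 0, and whether they share an effect was not tested. With the replicate block, 1807 of all genes were called in endoderm in place of 1478. The block changed no other gene result. In fits of 6 libraries, Foxa2, Sox17, Gata6 and Cxcr4 did not pass the filter for mesoderm or for arid4b∆ cells and have no value there. Depth limits the mesoderm results, where Foxa2 and Sox17 held at most 8 counts in a library.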
